A study of Homo sapiens with 8 samples.

Results

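The mock cultures of HCT116 cells that served as the reference for 2 miRNA precursors were compared with each other. HCT116 is a human colorectal cancer line. Each array of the series held 2 RNAs, and on the 4 HCT116 arrays the Cy3 (green) channel held mock cells, which the labels give as not transfected and the study's methods as a mock transfection that left out precursor and siRNA, whereas the Cy5 (red) channel held cells transfected, at 1 miRNA per array, with the 5p or the 3p strand of miR-139 or with either strand of miR-143, by use of Lipofectamine RNAiMAX. The comparison used the Cy3 channels of these 4 of the 8 arrays of the series: the 2 mock channels of the miR-143 arrays (the miR-143 side) against the 2 mock channels of the miR-139 arrays (the miR-139 side). The other 4 arrays were made in the same way with PANC-1, a line from a human pancreatic cancer: 2 carried the strands of the miR-30c precursor (miR-30c-5p and miR-30c-2-3p) and 2 those of miR-30a. The labels give 1 line, 1 culture protocol and no treatment for all 4 HCT116 mock channels. They name a pair of media without saying which culture had which. The study's methods give DMEM with fetal bovine serum for HCT116. The question was how far 2 reference cultures of 1 line differed. The identifiers of the arrays carry the same mock RNA code on both arrays of a precursor. Both channels of a side may therefore be 1 RNA hybridised on 2 arrays, and the spread between them was taken as array error, not as the spread between cultures. Whether a side held more than 1 culture is not known, so no test, p-value or SD between cultures is given, and a fixed rule was used instead: a gene was counted as higher or lower when its mean log2 level differed by at least 1 (2-fold) between the sides. All differences are given as the miR-143 side minus the miR-139 side.

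Cultured epithelial cells change their transcripts with density, nutrients, serum and stress. NF-kB drives chemokines and survival genes, interferon signalling drives antiviral genes, and YAP with TEAD factors responds to cell shape and density. Cells that slow their cycle lower the transcripts for replication, mitosis and histones, and sterol-sensing through SREBP sets the level of the genes for cholesterol synthesis. Keratins are the intermediate filament proteins of epithelia, and KRT80 is a type II keratin. In a 2-channel experiment the mock RNA is the denominator of every ratio.

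Of the 43403 genes named on the array, 19141 were measured, that is, were well above background on both arrays of at least 1 side. On each of the 8 arrays, 44.1% to 45.3% of the 60901 spots other than controls were well above background in Cy3, and none was saturated. The number of arrays limits the precision, as does the signal of dim genes. All 12 of the epithelial markers were measured in the HCT116 mock channels and 11 in those of PANC-1, so their detection does not tell the lines apart. EPCAM, an epithelial adhesion molecule, stood at 12.12 and 12.07 on the 2 miR-139 arrays (5p, then 3p) and at 12.25 and 12.22 in the miR-143 mock (log2 level). OCLN, a tight junction protein, was the one epithelial marker past the 2-fold rule (1.27). In log2, the summed signal of the epithelial list was 15.66 to 15.68 (miR-139 side) and 16.20 to 16.26 (miR-143 side). Bright genes weigh most in such a sum. Of 14 mesenchymal and PANC-1 markers 8 were measured in the HCT116 and 7 in the PANC-1 mock channels. The log2 of the summed signal of the 8 was 7.87 to 7.94 on the miR-139 side and 7.35 to 7.54 on the miR-143 side. SNAI2, an EMT factor, differed by 1.85, with 1 of the 2 miR-139 arrays well above background, and VIM by -2.24. Of 9 immune and endothelial markers 3 were measured, and CD3E, CD68, LYZ, HBB and PECAM1 were not well above background. The log2 of the summed signal of the 3 was 4.65 to 4.70 on the miR-139 side and 5.06 on the miR-143 side. The part of these shifts in the differences below was not tested. The detection limit of the 4 channels was 2.35 to 2.41 on the log2 scale. The median level of the spike-in controls differed by 0.10 on the log2 scale between the sides before normalisation, and that of the measured genes by 0.02. The sides lie at different positions of 1 slide, so position and culture cannot be told apart.

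The promoters of 5 genes, chosen as examples of the gene groups described below, are shown first, 300 bases each, 5′ to 3′ on the strand of the gene, from 250 bases before to 50 bases after the start of the gene (RefSeq, GRCh38.p14). CXCL1 and BIRC3 stand for the NF-kB group and IFIT1 and ISG15 for the interferon group, all 4 of which were higher on the miR-143 side. PLK1 stands for the mitosis group, of which 2 of 22 genes were at least 2-fold lower. All 22 lay below 0, as did 10137 of the 19141 genes measured. Capitals mark an NF-kB motif (GGG, any 3 bases, TTCC) in CXCL1 and BIRC3, an interferon-stimulated response element (GAAA, any 2 bases, GAAA) in IFIT1 and ISG15, and a CCAAT box and a cell cycle homology region (TTTGAA) in PLK1, each searched on both strands.
CXCL1, chr4:73869143-73869442, plus strand: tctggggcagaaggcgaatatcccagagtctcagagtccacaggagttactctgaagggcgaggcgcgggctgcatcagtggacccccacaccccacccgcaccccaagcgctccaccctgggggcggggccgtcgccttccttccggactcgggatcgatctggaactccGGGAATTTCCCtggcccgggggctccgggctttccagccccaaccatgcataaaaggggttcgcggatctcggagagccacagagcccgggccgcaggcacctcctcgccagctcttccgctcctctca
BIRC3, chr11:102317234-102317533, plus strand: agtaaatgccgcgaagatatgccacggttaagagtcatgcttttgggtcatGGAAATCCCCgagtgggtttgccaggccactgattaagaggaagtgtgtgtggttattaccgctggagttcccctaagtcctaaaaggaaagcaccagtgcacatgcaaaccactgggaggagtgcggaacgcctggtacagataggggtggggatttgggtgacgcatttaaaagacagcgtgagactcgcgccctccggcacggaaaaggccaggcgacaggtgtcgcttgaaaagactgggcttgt
IFIT1, chr10:89392373-89392672, plus strand: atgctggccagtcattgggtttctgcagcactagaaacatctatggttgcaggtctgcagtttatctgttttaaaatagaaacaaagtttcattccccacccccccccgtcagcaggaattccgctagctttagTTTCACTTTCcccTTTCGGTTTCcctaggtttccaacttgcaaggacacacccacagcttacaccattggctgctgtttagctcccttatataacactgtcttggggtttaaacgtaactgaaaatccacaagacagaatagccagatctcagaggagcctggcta
ISG15, chr1:1013247-1013546, plus strand: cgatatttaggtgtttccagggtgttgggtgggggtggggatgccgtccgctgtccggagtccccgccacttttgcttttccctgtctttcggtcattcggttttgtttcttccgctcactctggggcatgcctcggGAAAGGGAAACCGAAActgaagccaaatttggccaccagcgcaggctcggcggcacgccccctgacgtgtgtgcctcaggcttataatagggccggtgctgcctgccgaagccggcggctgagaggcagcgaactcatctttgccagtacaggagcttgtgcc
PLK1, chr16:23678639-23678938, plus strand: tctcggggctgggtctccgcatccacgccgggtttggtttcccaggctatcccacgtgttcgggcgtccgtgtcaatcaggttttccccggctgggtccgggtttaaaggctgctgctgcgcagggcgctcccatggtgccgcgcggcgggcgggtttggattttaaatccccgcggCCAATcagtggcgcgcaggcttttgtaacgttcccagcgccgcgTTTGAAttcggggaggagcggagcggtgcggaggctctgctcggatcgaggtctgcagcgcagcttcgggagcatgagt
In CXCL1 the 2 overlapping NF-kB matches began 79 and 78 bases before the start, and in BIRC3 the match lay 199 bases before it. IFIT1 held response elements at 116 and 103 bases and ISG15 at 113 and 107 bases before the start. In PLK1 the CCAAT box lay 73 bases and the TTTGAA 29 bases before it.

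The levels of 521 genes were at least 2-fold higher (2.72% of the genes measured) and those of 261 were at least 2-fold lower (1.36%) on the miR-143 side. These counts depended on the background correction: with normexp and an offset of 50 they were 127 and 59. Between the 2 mock channels of a side the same rule found 31 genes in the miR-139 pair (0.162%) and 9 in the miR-143 pair (0.0470%). The median absolute difference was 0.25 between the sides against 0.09 and 0.08 within them. The values of the 2 + 2 arrays did not overlap for 75.3% of all genes measured, so a lack of overlap alone says little. Among the counted genes the values overlapped for 2 of the higher and 2 of the lower genes. A difference of at least 4-fold was seen for 95 higher and 11 lower genes, and one of at least 8-fold for 22 higher and 0 lower genes. Of the genes counted, 391 of the higher and 234 of the lower ones were well above background on all 4 arrays, whereas 97 of the higher ones were not well above background on either miR-139 array and 19 of the lower ones on neither miR-143 array.

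**Figure D1:**
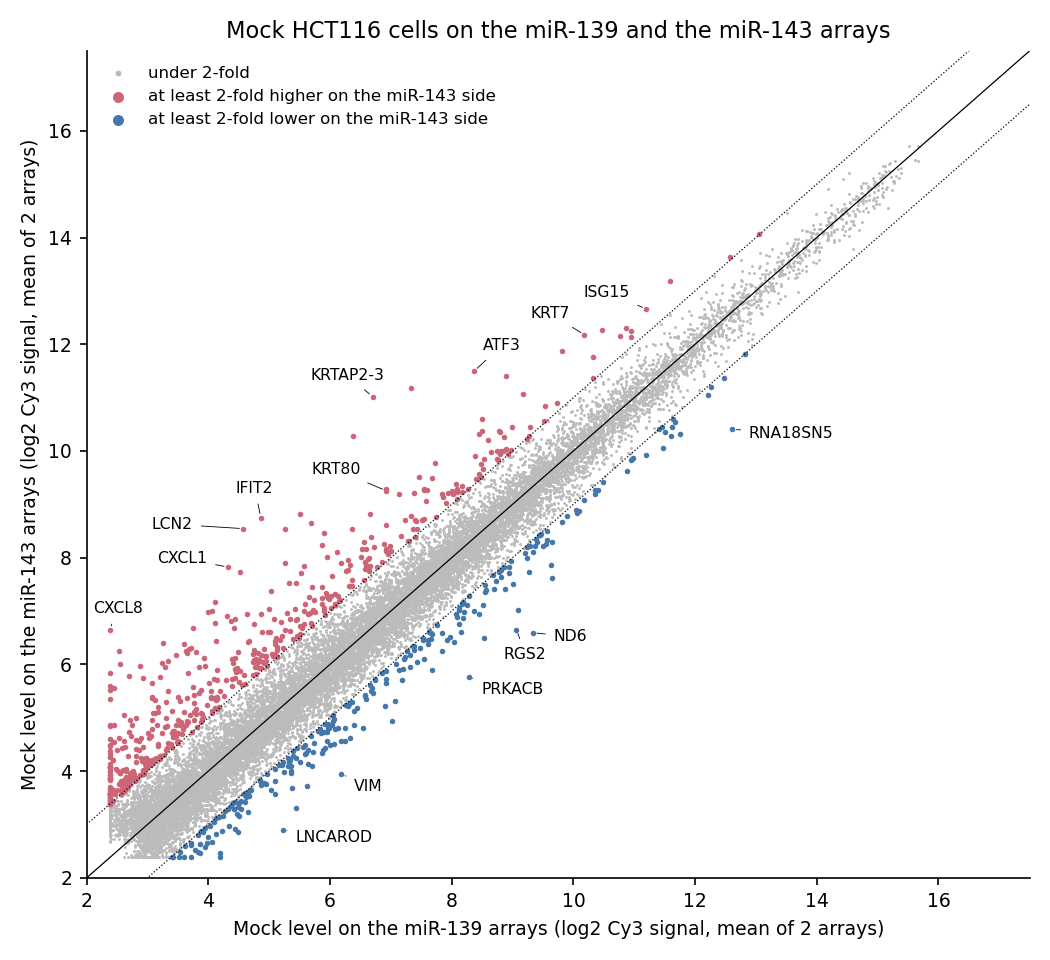
Mean log2 Cy3 signal of 19131 genes in mock HCT116 cells, miR-139 arrays on the x axis and miR-143 arrays on the y axis (2 arrays each); the solid line marks equal levels and the dotted lines a 2-fold difference. Red points (at least 2-fold higher on the miR-143 side) reach farther from the line than blue points (at least 2-fold lower), and the left edge of the cloud is the detection limit.

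KRT80, which was named with earlier results of these data known, was among the higher genes. Its probe lies at chr12:52563485-52563544 on the minus strand (hg19). The log2 level of KRT80 in mock cells was 6.98 on the miR-139-5p array and 6.87 on the miR-139-3p array. On the miR-143-5p and miR-143-3p arrays it was 9.24 and 9.26. The mean difference was 2.33, or 5.02-fold. The arrays of a side were 0.10 and 0.02 apart, which measures array error and not the spread between cultures. KRT80 was well above background on every one of the 4 arrays.

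The keratins are the structural group to which KRT80 belongs. Of 22 keratins listed 17 were measured, 6 were at least 2-fold higher and 1 was at least 2-fold lower, with a median difference of 0.71 against -0.03 over all genes. Over 16 alternative settings 2 to 7 were higher and 0 to 1 lower, with 2 and 0 under normexp with an offset of 50 and under loess with Aquantile. KRT7, a keratin of simple epithelia, had log2 levels of 10.16 and 10.20 on the miR-139 side and 12.17 and 12.19 on the miR-143 side, a difference of 1.999. KRT86, a hair keratin, differed by 1.73 and KRT83, another one, by 1.12. KRT6B and KRT6A, keratins of stressed and proliferating squamous epithelium, were not well above background on the miR-139 side and were at least 5.63-fold and at least 2.22-fold higher. These pairs have near-identical sequences and their probes may share signal. KRT8 and KRT18, the keratin pair of simple epithelia, showed differences of 0.71 and 0.38, below the 2-fold rule. KRT20, a marker of differentiated colonic epithelium, was the lower one: it stood at 3.48 and 3.34 on the miR-139 side and was not well above background on the miR-143 side, a difference of at least 2.01-fold that rests on the detection limit. With the limit at the 1st percentile the KRT20 difference was -0.59, and with normexp and an offset of 50 it was -0.13, both short of the rule.

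Among genes well above background on all 4 arrays, the highest difference was that of KRTAP2-3, a keratin-associated protein gene of hair. Its log2 level was 6.74 and 6.67 on the miR-139 side and 11.02 on both miR-143 arrays, a difference of 4.32 (20.0-fold). KRTAP3-1, of the same class and also on chromosome 17, stood at 6.30 and 6.44 against 10.29 and 10.28, a difference of 3.92. LCN2, the iron-siderophore-binding protein lipocalin 2, was at 4.56 and 4.60 against 8.55 and 8.53, a difference of 3.97. In each of these both values of a side lay close together. That the sides did not overlap was a condition for choosing these genes. GALNT5, which starts O-glycosylation, NRG1, a ligand of the ERBB receptors, ARRDC4, an arrestin-domain protein, and AKR1B10, an aldo-keto reductase, followed with differences of 3.31, 3.22, 3.06 and 3.00.

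**Figure D2:**
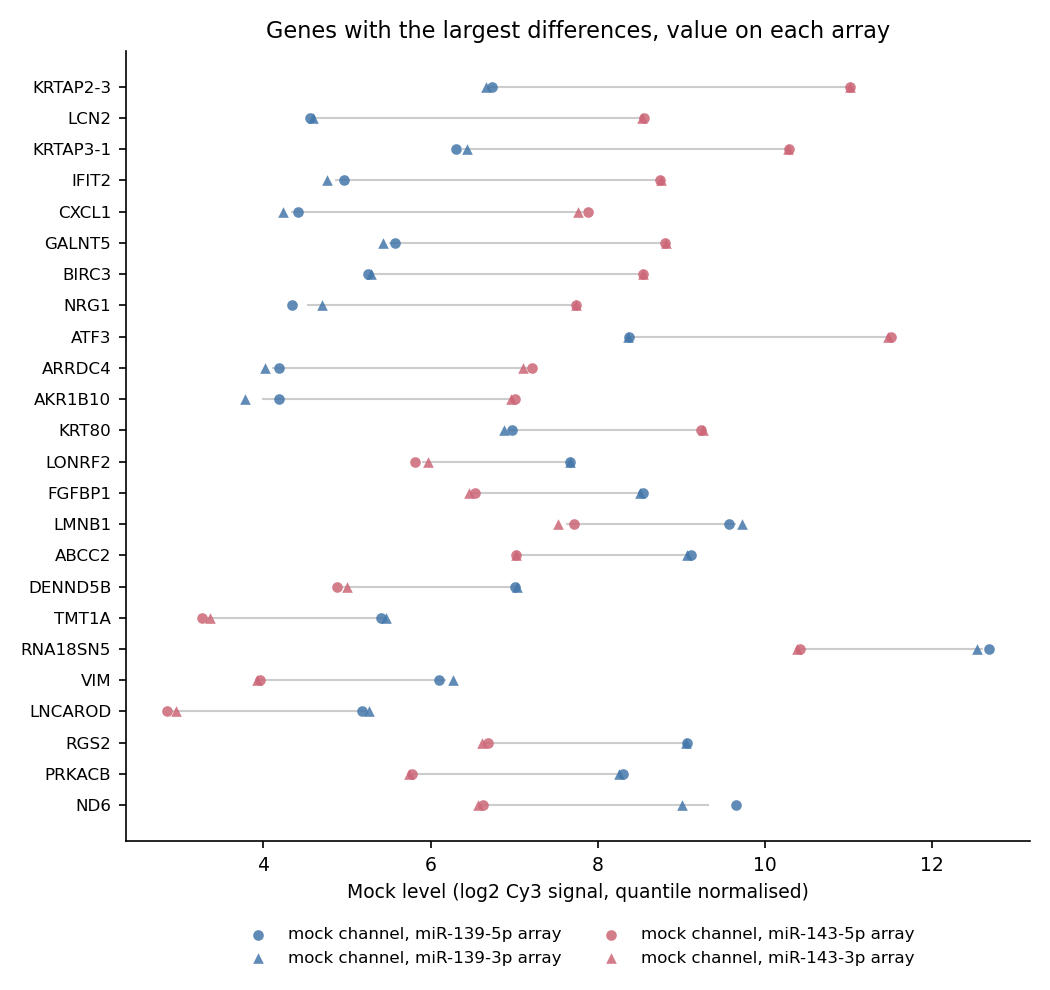
Log2 Cy3 level on each of the 4 arrays (x axis) for KRT80 and the named genes with the largest differences, 11 higher and 12 lower (y axis); blue marks the miR-139 arrays, red the miR-143 arrays, and the grey line joins the means of the sides. The blue and the red markers are separate in every gene. This was a condition for choosing all of them but KRT80, which was named with earlier results of these data known. ND6 has the widest gap within a side, with miR-139 values of 9.66 and 9.01.

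Among cornified and surface epithelial genes, 22 of 28 were measured and 9 were at least 2-fold higher, 0 lower (median 0.55). Beside LCN2 these were SPRR2A, a precursor of the cornified envelope that was not well above background on the miR-139 side (at least 8.83-fold), CEACAM1, a cell adhesion molecule (1.67), KLK6 and KLK10, kallikrein proteases (1.596 and 1.48), KLF5 and GRHL3, epithelial transcription factors (1.48 and 1.096), CDKN1A and SERPINB5 (1.46 and 1.34). ELF3, DSP and PKP3 differed by 0.04, 0.01 and -0.06.

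Of 20 NF-kB targets 17 were measured, 10 were at least 2-fold higher and 0 lower, and the median was 1.21. Among the 12 targets well above background on all 4 arrays 6 were higher, with a median of 0.87, and with normexp and an offset of 50 there were 5 of 17, with a median of 0.496. The chemokines of the CXC family, which attract neutrophils, led the list. CXCL1 had log2 levels of 4.42 and 4.23 on the miR-139 side and 7.89 and 7.76 on the miR-143 side, a difference of 3.498. CXCL2 differed by 2.60. CXCL8, interleukin 8, was not well above background on either miR-139 array and stood at 6.63 and 6.67 on the miR-143 side, so it was at least 19.3-fold higher. CXCL3 was likewise not well above background on the miR-139 side and was at least 8.55-fold higher. CXCL1, CXCL2 and CXCL3 are close copies, so their probes may share signal. BIRC3, an inhibitor of apoptosis, was at 5.25 and 5.28 against 8.54 and 8.55, a difference of 3.28. The signalling components RELB, a subunit of NF-kB, and TNFAIP3, a brake on it, differed by 1.86 and 1.61. NFKBIA and NFKB2 stayed under the rule (0.71 and 0.56), as did NFKB1 (0.09) and SOD2 (-0.11). NFKBIZ and the chemokine CCL20 were not well above background on the miR-139 side and were at least 2.32-fold and at least 2.31-fold higher. IL1A, IL1B and IL6 were not measured. SAA1, an acute-phase protein outside this list, was not well above background on the miR-139 side and was at least 11.1-fold higher. Its near-identical copy SAA2 may share its signal.

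In the interferon response list, 21 of 24 genes were measured, 12 were at least 2-fold higher and 0 lower, with a median of 1.03. IFIT2, an interferon-induced protein that binds RNA, stood at 4.96 and 4.76 on the miR-139 side and at 8.75 on both miR-143 arrays, a difference of 3.89. IFIT1 and IFIT3 of the same family differed by 2.37 and 2.11. IFI44 was not well above background on the miR-139 side and was at least 13.2-fold higher. IFI27, OASL, ISG20, ISG15 and IFI6 differed by 2.37, 2.31, 1.81, 1.46 and 1.35. OAS1 was not well above background on the miR-139 side and was at least 2.94-fold higher. ISG15, the ubiquitin-like antiviral modifier, was the brightest of them, at 11.22 and 11.18 against 12.65 and 12.67. MX1, well above background on 1 of the 2 miR-139 arrays, and the RNA sensor RIGI differed by 1.03 each. The factors that carry the interferon signal differed less: IRF9 by 0.89 and STAT2 by 0.43.

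The immediate early, p53 and YAP lists also had medians above that of all genes. Of 23 immediate early genes measured, 9 were at least 2-fold higher and 0 lower (median 0.54). ATF3, a stress-induced transcription factor, was at 8.37 and 8.36 on the miR-139 side and 11.52 and 11.48 on the miR-143 side, a difference of 3.13. JUN, a subunit of AP-1, differed by 2.55, DUSP5 and DUSP1, phosphatases of MAP kinases, by 1.73 and 1.44, FOSL2 and FOS by 1.55 and 1.36, and EGR1 by 1.26. JUNB, JUND, IER2 and DUSP6 lay between -0.05 and 0.29. All 16 of the p53 targets listed were measured and 6 were at least 2-fold higher (median 0.84), among them TP53INP1 (1.64), the death receptor FAS (1.53), the cyclin-dependent kinase inhibitor CDKN1A (1.46) and ZMAT3 (1.27). MDM2 differed by 0.69 and BAX by -0.49. Of 14 YAP and TEAD targets measured 5 were at least 2-fold higher (median 0.80): the matricellular proteins CCN1 (2.10) and CCN2 (1.18), NT5E (1.56), the coagulation starter F3 (1.18) and GADD45B (1.06). In the list of ATF4 and unfolded protein response genes, ATF3 and DDIT3 (1.39) were higher and PHGDH, the entry enzyme of serine synthesis, was lower (-1.04), with 25 measured and a median of 0.17.

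Of 20 genes measured for the extracellular matrix and TGF-beta response, 10 were at least 2-fold higher and 1 was lower (median 1.01). Over the alternative settings 4 to 10 were higher, with 4 under normexp with an offset of 50 and 6 of 15 among genes well above background on all 4 arrays. The laminin subunits LAMB3 and LAMA3, which anchor epithelial cells to the basement membrane, differed by 2.51 and 2.09. PMEPA1 and SMAD7, which dampen TGF-beta signalling, differed by 2.78 and 1.30. TGFBI was well above background on 1 of the 2 miR-139 arrays (3.26 and 2.61) and stood at 5.75 on both miR-143 arrays. COL17A1, a hemidesmosomal collagen, was not well above background on the miR-139 side and was at least 2.75-fold higher, and the integrin subunit ITGA2 (1.11) was well above it on 1 of those 2 arrays. COL12A1, a fibril-associated collagen, was the lower one (-1.29). PLAU, the urokinase, stood at 10.44 and 10.50 against 12.28 and 12.26 (1.80) and its receptor PLAUR differed by 1.14. Of the plasminogen and protease list 14 were measured and 5 were at least 2-fold higher (median 0.57). Of 20 cytoskeletal and caveolar genes 4 were higher (median 0.32): TAGLN, ACTA2 and FHL2, with 1.65, 1.31 and 1.202, and CNN1, which was not well above background on the miR-139 side (at least 2.22-fold). Of the growth factor list HBEGF (1.71) and PDGFB (1.54) were higher and FGFBP1, a carrier of fibroblast growth factors, was lower (-2.03), of 12 measured.

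**Figure D3:**
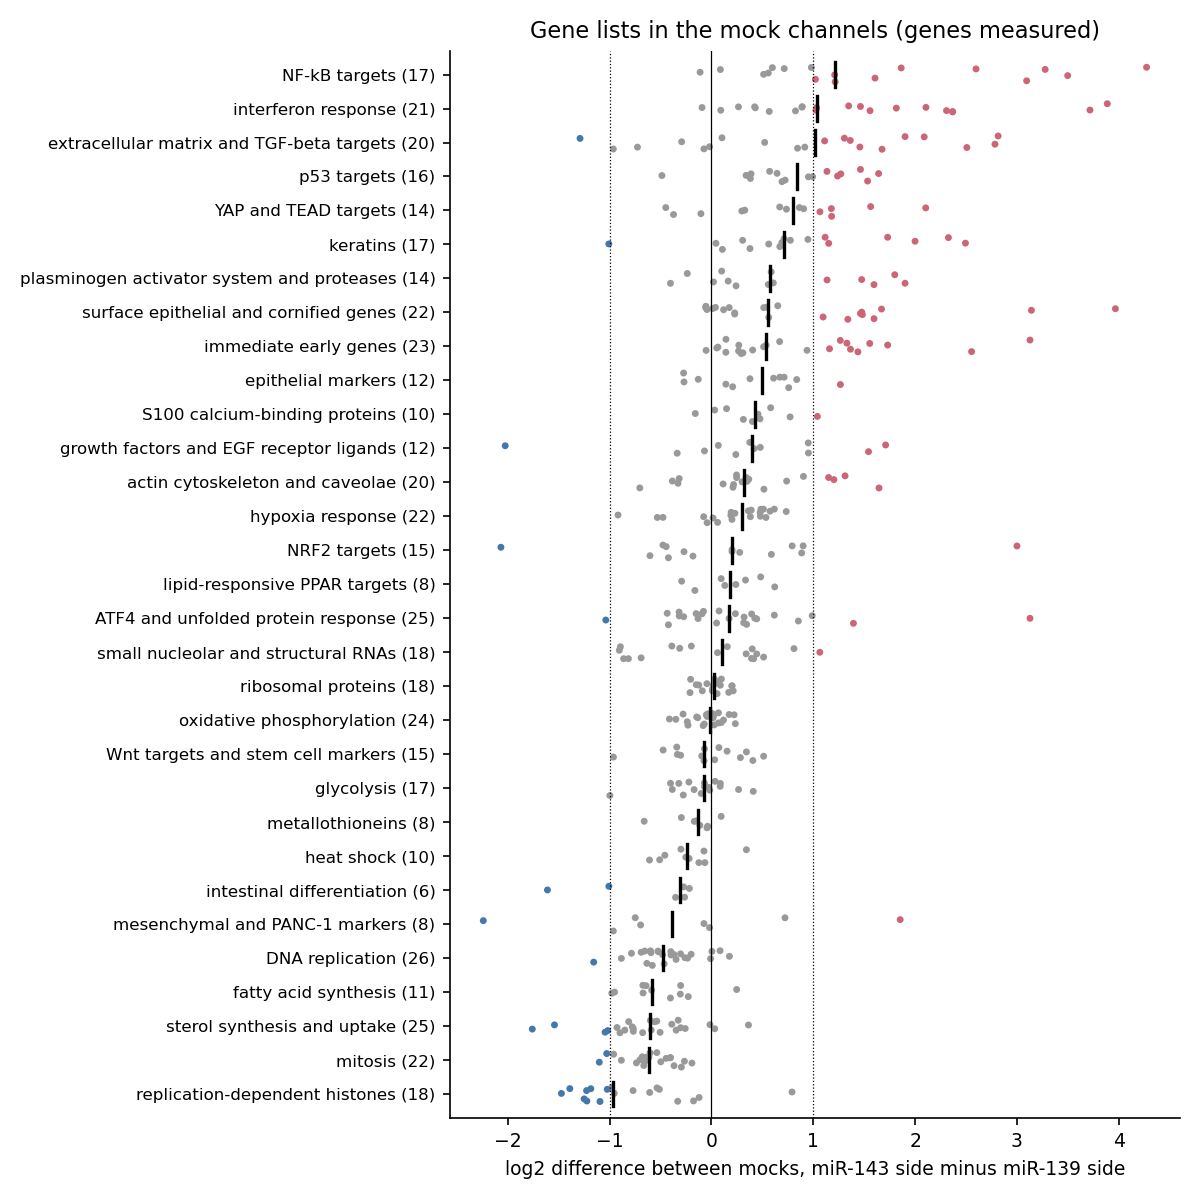
Log2 difference between the mocks (x axis) for each measured gene of the lists with at least 6 measured genes (y axis, number measured in brackets); black bars mark medians, dotted lines the 2-fold rule, and the vertical spread of points carries no value. The medians of the NF-kB and interferon lists lie to the right of 0 and those of the histone, mitosis and sterol lists to the left, with ribosomal protein and oxidative phosphorylation genes close to 0.

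The lower genes had smaller differences. The lowest named gene was ND6, a mitochondrial subunit of complex I, with log2 levels of 9.66 and 9.01 on the miR-139 side and 6.62 and 6.57 on the miR-143 side, a difference of -2.74. Its miR-139 arrays were 0.64 apart. PRKACB, a catalytic subunit of protein kinase A, stood at 8.30 and 8.25 against 5.77 and 5.75 (-2.52). RGS2, a regulator of G protein signalling, stood at 9.07 and 9.06 against 6.69 and 6.62 (-2.41). VIM, vimentin, the intermediate filament protein of mesenchymal cells, stood at 6.10 and 6.27 against 3.97 and 3.93 (-2.24). Both sides lay far below the 15.06 and 15.13 of the PANC-1 mock cells, which were normalised separately. The 18S ribosomal RNA probe RNA18SN5 differed by -2.21, the long noncoding RNA LNCAROD by -2.32, the methyltransferase TMT1A by -2.13, DENND5B by -2.08, the bile conjugate exporter ABCC2 by -2.07, the nuclear lamina protein LMNB1 by -2.03 and LONRF2 by -1.77. Of genes not well above background on the miR-143 side, SEMA3D, HBA2 and H4C16 had the largest bounds, at least 3.47-fold, at least 3.30-fold and at least 2.63-fold lower.

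Replication-dependent histones formed the list with the lowest median (-0.97). Of 18 measured, 8 were at least 2-fold lower and 0 higher. H3C2 stood at 10.83 and 10.93 on the miR-139 side and 9.63 on both miR-143 arrays, a difference of -1.25, and H2AC11, H4C8, H3C10, H2BC11, H3C4 and H2BC21 differed by -1.39 to -1.02. H2BC12 went the other way (0.79). The histone genes have near-identical coding sequences, and H2AC6 (-1.47 by its brightest probe) had 3 probes that did not all go the same way. Over all genes measured, 10137 of 19141 were below 0. All 22 mitosis genes were below 0 (median -0.62), and PLK1, a mitotic kinase, and CENPF, a kinetochore protein, passed the rule. PLK1 stood at 8.18 and 8.06 against 7.03 and 7.01 (-1.102). Of 26 DNA replication genes 23 were below 0, with a median of -0.47, and MCM4, a subunit of the replicative helicase, passed the rule (-1.16).

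Of 25 sterol synthesis and uptake genes 4 were at least 2-fold lower and 0 higher, with 23 below 0 and a median of -0.60. Among all 19141 genes measured, 10137 were below 0. INSIG1, the sterol-regulated retainer of SREBP, stood at 9.26 and 9.29 against 7.68 and 7.79 (-1.54). The sterol carrier STARD4 and the cyclase LSS differed by -1.04 and -1.02. Of 11 fatty acid synthesis genes 10 were below 0 and 0 passed the rule (median -0.59), with FADS1 at -0.98 and FASN at -0.67.

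Over 18 ribosomal protein genes the median was 0.03 with a range of -0.21 to 0.21, and over 17 glycolysis genes it was -0.07, with 0 genes past the rule in either. Of 22 hypoxia response genes 0 passed the rule (median 0.30), and of 15 Wnt targets 0 did (median -0.07). The intestinal differentiation list had 6 of 22 measured, with a median of -0.31. All 6 were below 0, as were 10137 of the 19141 genes measured. DPP4, a brush border peptidase (-1.61), and KRT20 were at least 2-fold lower. Of 24 oxidative phosphorylation genes, 10 heat shock genes, 8 metallothionein genes and 8 PPAR targets, 0 passed the rule, with medians of -0.02, -0.24, -0.13 and 0.18. Of 15 NRF2 targets AKR1B10 was higher and ABCC2 lower (median 0.20). Of 10 S100 genes S100A11 was higher (1.04, list median 0.43). The list of small nucleolar and structural RNAs, which also holds long noncoding RNAs such as NEAT1 and MALAT1, had 18 genes measured. Of these RN7SL1, the RNA of the signal recognition particle, was higher (1.06, list median 0.11). Under 16 alternative settings the medians of the NF-kB, interferon, matrix, p53, YAP, keratin, protease, immediate early, histone, mitosis, replication, sterol and fatty acid lists kept their sign, with ranges of 0.49 to 1.23 for NF-kB, 0.56 to 1.24 for interferon, 0.40 to 1.102 for the matrix list, 0.35 to 0.84 for YAP and 0.17 to 0.58 for proteases.

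The promoters of the counted genes were searched for 7 short motifs. RefSeq promoters were matched for 11378 of the measured genes, among them 318 of the higher and 158 of the lower genes. A match is a description of the letters and not a site in use. The NF-kB motif was found in 11.01% of the promoters of higher genes, in 5.06% of those of lower genes and in 7.42% over all measured genes. The interferon-stimulated response element was found in 7.23%, 3.16% and 2.87%, respectively. The AP-1 motif (TGANTCA) was found in 13.5%, 1.90% and 4.98%, and the TATA box (TATAAA) in 14.8%, 17.1% and 6.41%. The CCAAT box was found in 29.9% of the promoters of higher and 53.2% of those of lower genes, against 36.7% overall. TTTGAA was found in 13.5%, 19.0% and 9.92%, and a sterol-regulatory motif (TCACNCCAC) in 0.63%, 1.27% and 1.12%. Over all 27305 promoters of 300 bases the shares were 6.47% for the NF-kB motif, 3.65% for the response element, 7.76% for AP-1, 11.95% for the TATA box, 35.7% for the CCAAT box, 15.4% for TTTGAA and 1.15% for the sterol motif. Of the interferon list, 11 of 15 promoters matched held the response element, and of the NF-kB list, 9 of 15 held the NF-kB motif. The shown promoter of PLK1 belongs to a list in which 14 of 17 promoters held a CCAAT box and 11 of 17 TTTGAA.

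The transfected cells on the same arrays were a second readout that the rule did not use. The Cy5 channels of the miR-143 arrays were compared with those of the miR-139 arrays in the same way. These cells had received 4 different miRNAs, so the difference between cultures and that between miRNAs cannot be told apart. Over all 18815 genes measured in Cy5, 6.36% were at least 2-fold higher and 5.20% at least 2-fold lower on the miR-143 side. Of the 521 genes higher in mock cells, 507 were measured in Cy5, 490 had the same sign and 379 (74.8%) were at least 2-fold higher there too. Of the 261 lower genes, 252 were measured, 235 had the same sign and 141 (56.0%) were at least 2-fold lower. No gene higher in mock cells was at least 2-fold lower in Cy5, and 1 lower gene was at least 2-fold higher: HOXB8, a homeobox factor, named after its values were seen, with -1.18 in mock and 1.12 in transfected cells.

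KRT80 in transfected cells had log2 levels of 5.55 and 4.80 with miR-139-5p and miR-139-3p and of 8.13 and 9.91 with miR-143-5p and miR-143-3p, a difference of 3.85. The values of the sides did not overlap, although the miR-143 arrays were farther apart than in the mock channel. KRTAP2-3 and LCN2 differed by 5.59 and 5.43 in Cy5, each more than in Cy3. IFIT2 and IFIT1 differed by 2.93 and 1.29 in Cy5 and BIRC3 by 2.44, each less than in Cy3. Of the named lower genes LONRF2 had the lowest Cy5 difference (-4.74), and VIM differed by -1.11. In the lists, 11 of 17 NF-kB targets, 12 of 21 interferon genes and 9 of 16 keratins were at least 2-fold higher in Cy5, and 14 of 22 mitosis genes were at least 2-fold lower. Of the p53 targets 3 of 16 were at least 2-fold higher, with a median of 0.37 against 0.84 in mock cells.

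**Figure D4:**
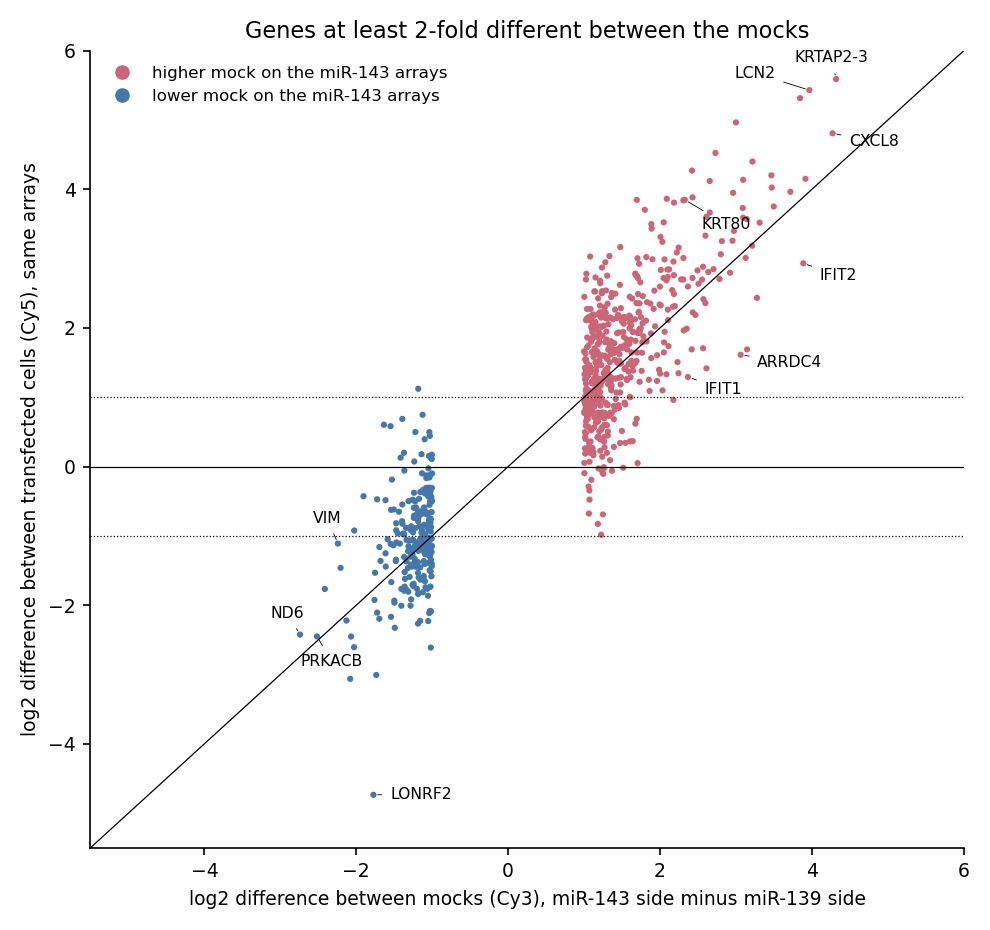
Log2 difference between the sides in mock cells (Cy3, x axis) and in transfected cells of the same arrays (Cy5, y axis) for 757 genes past the 2-fold rule in mock cells; red genes were higher and blue genes lower in the miR-143 mock, the diagonal marks equal differences and dotted lines 2-fold. Nearly all red points lie above 0 and most blue points below it.

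Since the mock RNA is the denominator of each array, the size of the difference was set beside the contrast of transfected against mock cells. For this, both channels of the 4 HCT116 arrays were quantile normalised together, and each Cy5 channel was compared with the mean of its own mock side and with that of the other mock side. These comparisons share their Cy5 channel. With its own mock, the miR-139-5p array had 186 genes at least 2-fold lower and 73 at least 2-fold higher. With the other mock it had 920 and 398, of which 129 and 34 were in both. The miR-139-3p array had 1676 and 1382 genes with its own mock and 1977 and 1597 with the other, with 1161 and 994 in both. For miR-143-5p the counts were 617 and 342 against 1074 and 1090, with 378 and 244 in both, and for miR-143-3p they were 697 and 476 against 1354 and 1315, with 515 and 346 in both. As a share of the genes lower with the own mock, 61.3% to 73.9% were also lower with the other mock. As a share of those lower with the other mock, 14.02% to 58.7% were also lower with the own mock. Of the genes higher with the own mock, 46.6% (miR-139-5p) to 72.7% (miR-143-3p) were also higher with the other mock, and of those higher with the other mock, 8.54% (miR-139-5p) to 62.2% (miR-139-3p) were also higher with the own mock. Every count was larger with the other mock, least so for miR-139-3p.

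The exchange turned the direction of some genes past 2-fold on both sides. There were 16 such genes on the miR-143-5p array, 6 on the miR-139-3p array, 3 on the miR-139-5p array and 1 on the miR-143-3p array. KRT80 was among the 16. On the miR-143-5p array its log2 ratio was -1.23 against its own mock and 1.09 against the other. On the miR-143-3p array it was 0.54 and 2.87. On the miR-139-5p and miR-139-3p arrays it was -1.52 and -2.25 against the own mock and -3.84 and -4.58 against the other. KRT80 was thus below both mocks on the miR-139 arrays and changed sign with the mock on 1 of the miR-143 arrays. IFIT2 on the miR-139-3p array went from 1.05 to -2.83, BIRC3 on the miR-139-5p array from 2.15 to -1.12 and RGS2 on that array from -1.12 to 1.29. HK2, hexokinase 2, whose mock levels differed by 0.09, gave -2.75 and -2.84 on the miR-139-3p array and -1.91 and -1.83 on the miR-143-3p array with the own and the other mock.

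**Figure D5:**
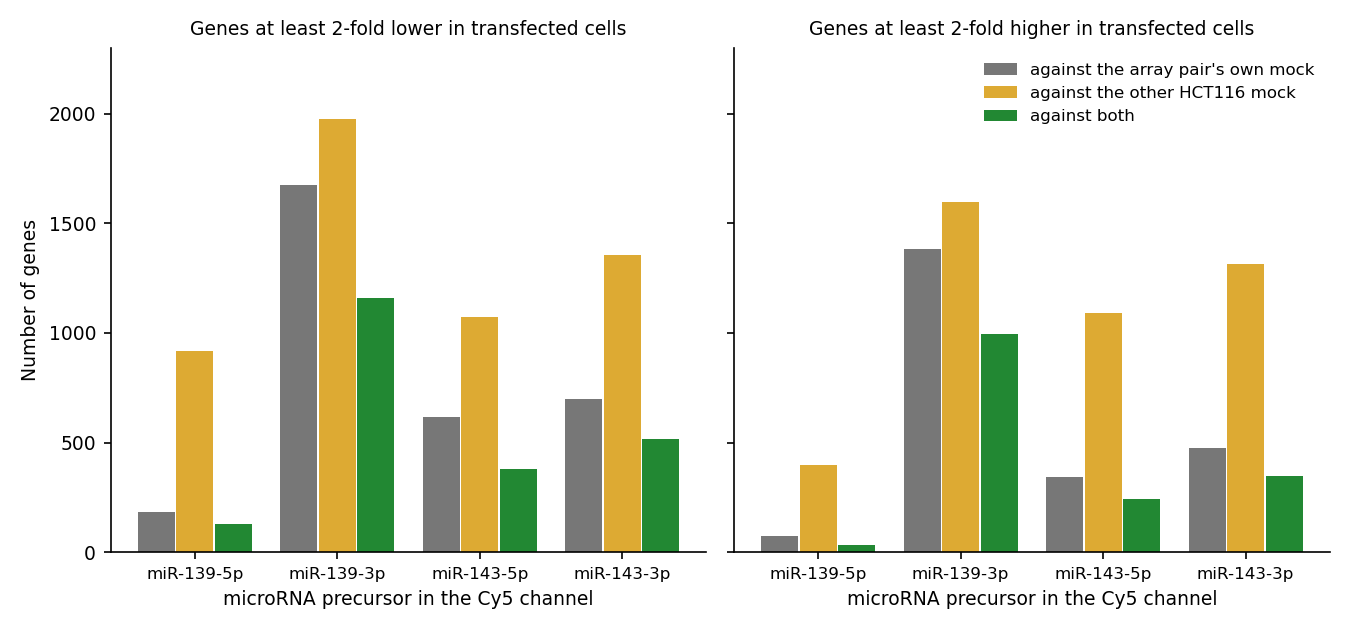
Number of genes (y axis) at least 2-fold lower (left) and at least 2-fold higher (right) in transfected HCT116 cells on each array, against the mean of the array pair's own mock channels (grey), against that of the other mock (yellow) and against both (green). The yellow bars exceed the grey bars on all 4 arrays in both directions, from 1977 against 1676 to 920 against 186 among lower genes.

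The mock cells of PANC-1 gave the most similar comparison in the series: 2 mock channels of the miR-30c arrays and 2 of the miR-30a arrays. Over 19079 genes, 158 (0.828%) were at least 2-fold higher and 44 (0.231%) at least 2-fold lower on the miR-30a side. Fewer genes were thus past the rule than between the HCT116 mocks, a difference between 2 pairs of cultures that was not tested. KRT80 stood at 8.50 on the miR-30c side and 8.76 on the miR-30a side. Of the 521 genes higher in the miR-143 mock, 343 were measured in PANC-1 mock cells, 35 were at least 2-fold higher on the miR-30a side and 2, OASL and TAC3, were at least 2-fold lower. These 35 are 10.2% of the 343 and 29.7% of the 118 genes that were at least 2-fold higher on the miR-30a side and measured in both lines. Among the 35 were the chemokines CXCL1, CXCL2 and CXCL8 (1.61, 1.83 and 1.66 in PANC-1), the laminin subunit LAMB3 (1.04), HBEGF (1.35), DUSP5 (1.502), ATF3 (1.098), PLAU and PLAUR (1.07 and 1.02), ICAM1 (1.07), THBS1 (1.004) and CCN2 (1.16). Of the 261 lower genes 215 were measured, 3 were at least 2-fold higher on the miR-30a side and 0 were lower. RGS2 was 1 of the 3, with -2.41 between the HCT116 mocks and 2.71 between the PANC-1 mocks. Of the interferon list, 0 of 23 genes measured in PANC-1 were at least 2-fold higher on the miR-30a side and 1, OASL, was lower (median 0.02). Of the NF-kB list, 5 of 16 genes were higher and 0 lower (median 0.66).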

How the data were processed

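Gene expression was measured on two-colour Agilent arrays. The deposited scanner output holds, per the file headers, the mean intensity and the median local background intensity of each spot, from Agilent Feature Extraction 11.5.1.1, in both channels. The authors' processed table holds Cy5 over Cy3 ratios only and was not used, since it gives no mock level. For the 4 HCT116 Cy3 channels the background was subtracted, channels were quantile normalised together, values below the lowest spot well above background were set to that level, and log2 values of the spots of a probe were averaged without outlier spots. In Cy5, and where both channels were normalised together, the 1st percentile was used as the limit, since some red spots had a raised local background. A gene was represented by its brightest probe that passed the filter. Of 58201 probes, 31104 were named through their accession, 3366 by symbol and 496 by synonym from RefSeq; 23235 kept the name on the array. Promoters came from RefSeq (GRCh38.p14); probe positions are those of the files (hg19).

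Where a gene was not well above background on 1 side, a bound is given ("at least"). The named genes were KRT80, the 12 largest differences in each direction among genes with a RefSeq symbol, well above background on all 4 arrays, without outlier spots, without overlap and with all probes going the same way, the genes of 32 lists past the 2-fold rule, and the 3 largest bounds in each direction. HK2 was named after its values were seen. Some genes that this rule names are not reported here. The members and lists were chosen with earlier results of these data known. Alternatives were other background corrections, normalisations, filters, probe rules and thresholds, and leaving out each array in turn. Computations ran in R 4.3.3 (limma 3.58.1; data.table, version 1.17.8) and in Python 3.11.15 (pandas 2.3.3, numpy 2.4.6, matplotlib 3.10.9). The steps were tested on simulated data in which known folds were put into bright genes. Dim genes, the bounds and genes measured on only 1 side were not tested in this way.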

Additional observations from a re-analysis of the deposited data

How the results depend on the processing

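The counts of higher and lower genes depended on the threshold and on the background correction. With normexp and an offset of 50 they were 127 and 59, with no background correction 220 and 99, and with loess within and Aquantile between the arrays 139 and 60, in place of 521 and 261. All genes counted under these settings were among those counted in the main setting. By construction each of these settings leaves the background or an offset in the signal (the loess setting starts from normexp with an offset of 50); the cause was not tested further. At a threshold of 1.5-fold the counts were 1615 and 1397, and at 3-fold 176 and 27. Under the other alternatives they ranged from 391 to 586 and from 193 to 389, including the limit at the 1st percentile, which was chosen after seeing the data and gave 471 and 247. Leaving out each array in turn gave 544 to 550 higher and 278 to 297 lower genes. The KRT80 difference was 1.93 with normexp and an offset of 50, 2.16 with no background correction and 1.97 with loess and Aquantile, against 2.33. It was 2.28 to 2.38 with each array left out, and 2.30 to 2.33 elsewhere. For 121 other named genes over 16 alternatives, 491 values moved by more than the spread between arrays, 1423 did not and 1 reversed; that was H2AC6, at 1.2046 with the median over its probes. Counts of higher genes per list ranged from 5 to 11 for NF-kB, 8 to 12 for interferon, 4 to 7 for p53, 3 to 5 for YAP, 6 to 9 for immediate early, 5 to 9 for surface epithelial, 2 to 5 for protease and 1 to 4 for cytoskeletal genes, and of lower genes from 6 to 10 for histones, 2 to 4 for sterol and 0 to 2 for intestinal differentiation genes. No test, paired or unpaired, was run, because each side may be 1 RNA.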

Other observations

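Small nucleolar RNAs guide the modification of ribosomal RNA and lie in introns of other genes. Of 200 measured, 13 were at least 2-fold lower on the miR-143 side and 0 were at least 2-fold higher. Over all genes measured, 1.36% were lower and 2.72% higher by this rule. The lower ones were mostly of the H/ACA class, among them SNORA80E (-1.37), SNORA38B (-1.30) and SNORA63 (-1.18). The share of this class among all 200 is not given here. Protein-coding genes made up 90.6% of the higher and 85.2% of the lower genes with a RefSeq symbol, against 87.9% of all measured, and long noncoding RNAs 6.90% and 5.26% against 7.72%. By chromosome, 3.28% of the 975 genes measured on chromosome 6 were lower, the highest share of any chromosome from 1 to 22 and X, and most of the lower histone genes of the list lie there. The share of higher genes was highest on chromosome 12, which carries the type II keratins (4.05% of 962). The higher genes had a median mock level of 5.03 (log2) and the lower ones of 5.82, against 6.28 over all measured genes.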
